A study of Homo sapiens with 6 samples.

Results

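The genes described here code for the ATP-dependent chromatin remodellers of the SWI/SNF, ISWI, CHD and INO80 families, for the bromodomain proteins named BRD, and for the ARID-domain proteins. They were chosen by symbol: every row whose symbol starts with SMARCA to SMARCE, INO80, or ARID, BRD or CHD followed by a digit. Earlier results of these data were known when the rule was set. By its name the rule also took BRD3OS, the gene opposite BRD3, which is not one of the bromodomain proteins. The rule took 47 of the 19923 gene symbols in the table, and 46 of the 47 had enough counts to be tested, among 14086 tested genes. The remaining member, the read-through transcript INO80B-WBP1, stood at 0 in all 6 libraries. The libraries came from total RNA of BT549, an established human breast cancer cell line with mesenchymal features. There were 3 libraries from control cells and 3 from cells treated with ENL, an abbreviation that the labels do not spell out and that is kept here as they give it. The labels state no dose, duration or vehicle. They also do not say whether replicate libraries are separate cultures, so the p-values below speak to the scatter among these 6 libraries, which may be technical. Bulk RNA cannot separate fewer cells of a type from less RNA per cell.

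Chromatin remodellers use the energy of ATP to slide, evict or exchange nucleosomes, and each family carries a related motor subunit of the SNF2 type. SWI/SNF opens promoters and enhancers with SMARCA4 or SMARCA2 as the motor, ISWI spaces nucleosomes, CHD proteins read methylated histones or work in the NuRD repressor complex, and INO80 acts on nucleosomes that hold the variant H2A.Z. Bromodomains bind acetylated lysine on histones, and BET proteins such as BRD2 and BRD3 use them to bring transcription elongation factors to active genes. Several SWI/SNF genes, among them ARID1A and SMARCA4, are recurrently mutated in carcinomas.

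The members moved in both directions between ENL and control. With edgeR's quasi-likelihood test and Benjamini-Hochberg adjustment over all 14086 genes, 9 of the 46 members were higher in ENL, 8 were lower and 29 did not pass an adjusted p of 0.05. Of all tested genes 38.4% passed, with 20.0% of the tested genes higher and 18.4% lower, against 37.0% of the members, so the share of members called lay near the background and is not a result about this group of genes. The median log2 fold change was 0.07 over the members and -0.02 over all tested genes. In 13 members all 3 ENL libraries lay above all 3 controls and in 13 they lay below, where the groups did not overlap in 54.0% of all tested genes, 26.4% above and 27.6% below. The higher members were CHD2, ARID5A, INO80B, SMARCC2, ARID3A, SMARCAL1, BRD2, INO80E and SMARCD3. The lower members were SMARCA2, INO80D, CHD8, CHD4, SMARCAD1, INO80, SMARCA1 and SMARCA5. The balance between the directions depended on scaling. When libraries were scaled by their totals alone, the median over all genes was -0.23 on the log2 scale and 31.1% of all called genes were higher against 52.2% here; 2 members were then higher (CHD2 and INO80B) and 13 lower.

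**Figure D1:**
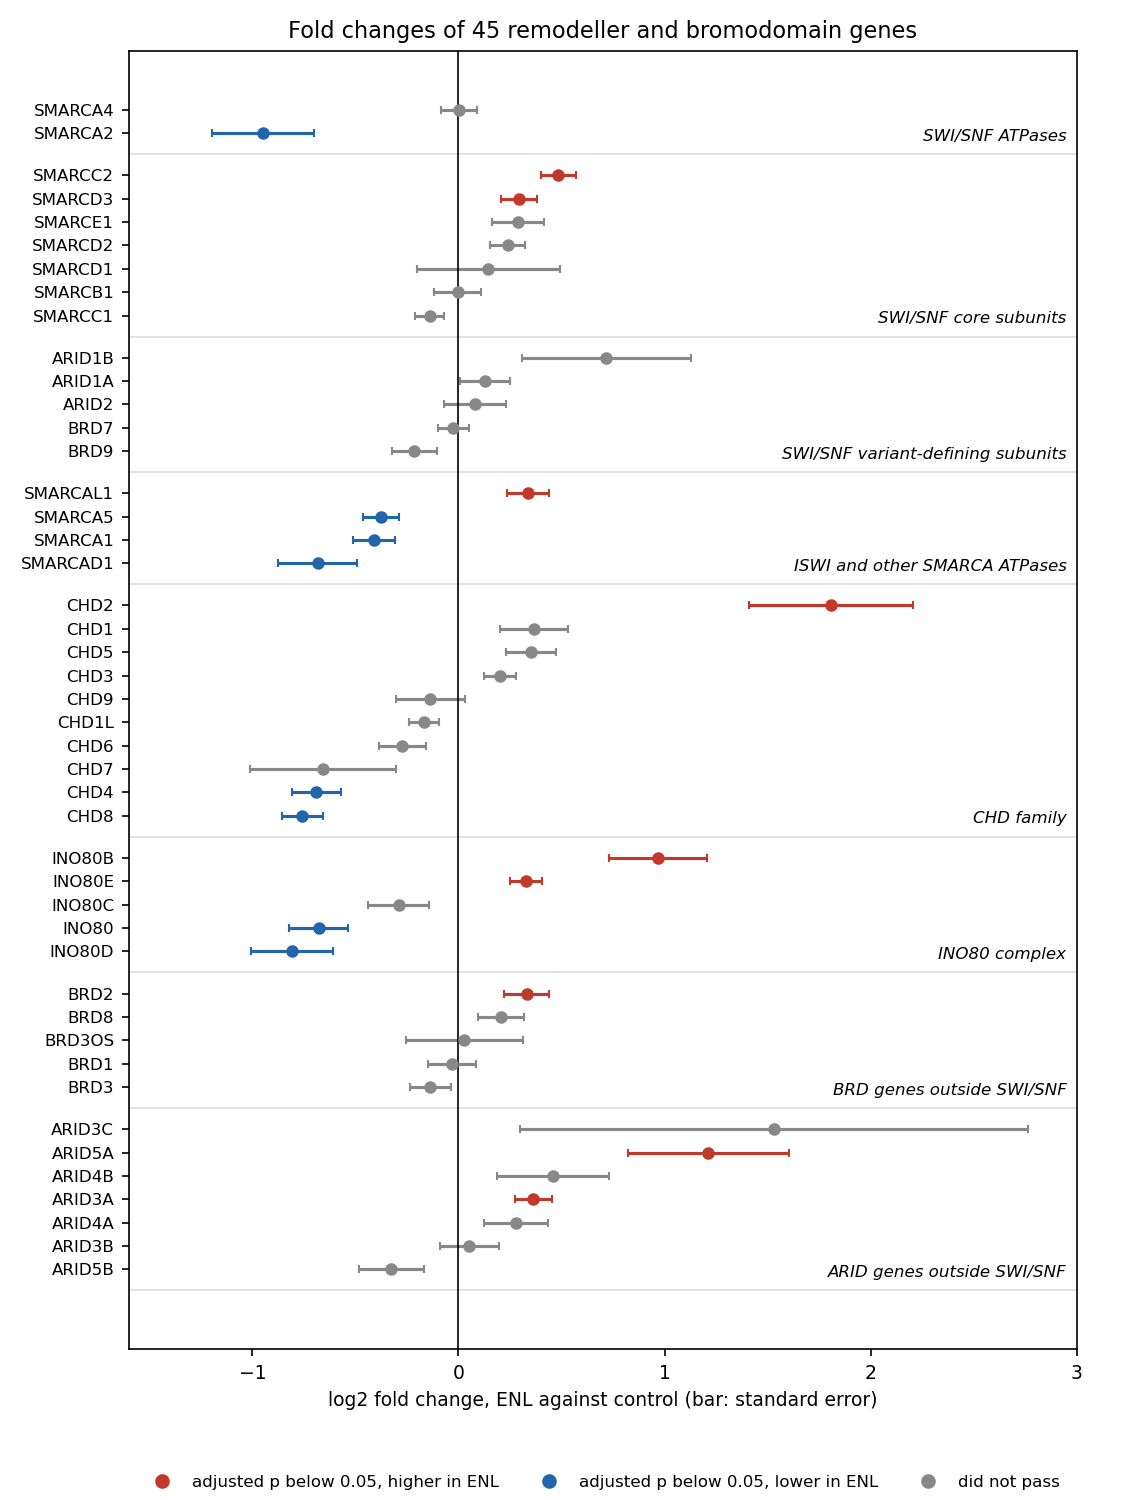
Log2 fold change of 45 of the 46 tested members, ENL against control, grouped by role; bars are standard errors and colour marks the direction of those with an adjusted p below 0.05. CHD2 stands farthest to the right among the called members, at 1.81, and SMARCA2 farthest to the left, at -0.95.

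The 6 libraries held between 74457932 and 85310759 estimated counts. By the spacing of the low values 1 fragment was probably worth about 4 counts, in which case these totals overstate the number of fragments. ENL library 3 stood apart from the other two on the second principal component, which held 15.85% of the variance, and it had the highest ENL value in 30 of the 46 members. That count was not made over all tested genes, so whether it is particular to the members was not tested. Ribosomal protein genes took 8.01% ± 0.23 of control counts and 12.41% ± 1.33 of ENL counts (SD, n = 3 each), and mitochondrially encoded genes 10.24% ± 0.58 and 8.32% ± 0.53. With these 100 genes left out of the fit, the same 9 members were called higher and the same 8 lower. Any other part of these genes in the members' differences was not tested. The labels name the tissue as mammary epithelium. The 8 luminal epithelial markers summed to 69.1 to 82.1 CPM in control and 87.0 to 108 CPM in ENL, mostly GATA3, KRT8 and KRT18, while PGR was at 0 and EPCAM and CDH1 were near 0 in all 6 libraries. The 6 mesenchymal markers, led by VIM, summed to 3333 to 4067 CPM in control and 6176 to 7069 CPM in ENL. The summed level of 5 leukocyte markers was 8.40 to 12.3 CPM in control and 1.31 to 2.46 CPM in ENL; their part in the members' differences was not tested.

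Of the SWI/SNF motors, the abundant SMARCA4 did not pass the test and the scarce SMARCA2 fell. CPM here are estimated counts scaled to a common library total after trimmed-mean (TMM) normalisation. SMARCA4, also known as BRG1 (chromosome 19, 10960825 to 11079426, GRCh38), had 175, 179.9 and 202 CPM in control libraries 1 to 3 and 175, 196 and 187 CPM in the ENL libraries. The groups overlapped, and its log2 fold change was 0.00 ± 0.09 (SE; adjusted p = 0.983, edgeR). SMARCA2, also known as BRM (chromosome 9, 1980290 to 2193624), had 3.28, 3.57 and 3.32 CPM in control and 1.90, 1.22 and 2.13 CPM in ENL. All 3 ENL libraries lay below the controls, and the log2 fold change was -0.95 ± 0.25 (adjusted p = 0.0221, edgeR). Per kilobase of transcript, SMARCA4 stood at 32.0 CPM in control and 32.1 in ENL, and SMARCA2 at 0.480 and 0.248. The SMARCA2 call was lost on leaving out any one of the controls, although every log2 fold change stayed between -1.15 and -0.74, and the gene lies below the level of 10 CPM asked for under a stricter filter.

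Among the 7 SWI/SNF core subunits, 2 rose and 5 did not pass. SMARCC2 and SMARCC1 are the paralogous scaffold subunits BAF170 and BAF155. SMARCC2 (chromosome 12, 56162983 to 56189567) had 60.3, 63.4 and 66.2 CPM in control and 86.9, 83.9 and 95.0 CPM in ENL. The ENL libraries lay well above the controls, by 0.49 ± 0.08 on the log2 scale (adjusted p = 0.00473, edgeR); its call was lost under scaling by library totals (0.28, adjusted p = 0.062). Its exons share 514 bases with MYL6 on the opposite strand, and whether the counting used strand is not stated. SMARCC1 had 131, 129 and 127 CPM in control and 119.6, 111 and 121 CPM in ENL, all lower than the controls, but its log2 fold change of -0.14 ± 0.07 did not pass (adjusted p = 0.167, edgeR), though it was called lower under upper-quartile scaling and under library totals. SMARCD3, the BAF60C subunit known from heart and muscle, moved from 37.9 ± 2.60 to 46.5 ± 1.21 CPM (SD, n = 3), a log2 fold change of 0.29 ± 0.09 (adjusted p = 0.036, edgeR). The SMARCD3 call was lost in 9 of 19 alternatives, including the omission of control library 1 or 3 or of ENL library 1 or 2. SMARCB1, the core subunit lost in rhabdoid tumours, had 74.0, 58.2 and 69.8 CPM in control and 67.9, 70.9 and 62.5 CPM in ENL, with a log2 fold change of -0.00 ± 0.11. SMARCD1 was uneven in ENL, at 39.6, 14.4 and 23.8 CPM against 22.7, 22.8 and 25.0 CPM in control. SMARCD2 and SMARCE1 had log2 fold changes of 0.24 and 0.29 with no overlap between groups, and neither passed (adjusted p = 0.0675 and 0.111, edgeR); both were called higher with an offset for transcript length and GC content, and SMARCD2 also without ENL library 3.

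None of the 5 subunits that define the SWI/SNF variants passed the threshold. They are ARID1A and ARID1B of the canonical complex, ARID2 and BRD7 of the PBAF complex and BRD9 of the non-canonical complex. edgeR called 0 of 5, with 0 at an unadjusted p below 0.05, and DESeq2 and limma-voom called 0 as well. Scaling by library totals called BRD9 lower, and the length and GC offset called ARID1A higher. ARID1A had 182, 169.8 and 182 CPM in control and 173, 179 and 231 CPM in ENL, with ENL library 3 highest. ARID1B had 36.1, 30.4 and 39.1 CPM in control and 63.8, 26.2 and 83.4 CPM in ENL. ENL library 2 lay below all controls for ARID1B while the other two lay far above, giving a log2 fold change of 0.72 ± 0.41 (adjusted p = 0.221, edgeR); without ENL library 2 ARID1B was called higher. ARID2 had 14.0, 12.1 and 14.8 CPM in control and 13.8, 12.6 and 16.8 CPM in ENL, which overlapped throughout. BRD9 had 88.6, 108 and 92.3 CPM in control and 74.7, 87.8 and 86.6 CPM in ENL. The BRD9 groups did not overlap, but its log2 fold change of -0.21 ± 0.11 did not pass (adjusted p = 0.164, edgeR). BRD7 stood at 76.5 ± 3.79 CPM in control and 75.2 ± 1.89 CPM in ENL.

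The ISWI motors and 2 further SMARCA helicases were all called, 3 down and SMARCAL1 up. Over all tested genes the called share was 38.4%, and no test was made of these 4 genes as a set. SMARCA5 and SMARCA1 are the ISWI motors SNF2H and SNF2L. SMARCA5 (chromosome 4, 143513463 to 143557486) had 80.8, 72.7 and 76.5 CPM in control and 60.4, 55.3 and 61.6 CPM in ENL. SMARCA1 (chromosome X, 129446501 to 129523500) had 83.8, 71.5 and 77.1 CPM in control and 58.0, 53.4 and 63.2 CPM in ENL. In both genes every ENL library was below every control, with log2 fold changes of -0.38 ± 0.09 for SMARCA5 (adjusted p = 0.0133, edgeR) and -0.41 ± 0.10 for SMARCA1 (adjusted p = 0.0177, edgeR). SMARCAD1, a remodeller linked to DNA end resection and heterochromatin upkeep (chromosome 4, 94207611 to 94291292), had 50.9, 47.3 and 44.6 CPM in control and 32.9, 21.0 and 35.0 CPM in ENL. ENL library 2 was the lowest, and the log2 fold change was -0.68 ± 0.19 (adjusted p = 0.0288, edgeR). SMARCAL1, an annealing helicase that acts at stalled replication forks (chromosome 2, 216412414 to 216483053), had 15.2, 16.5 and 14.9 CPM in control and 20.4, 19.8 and 18.7 CPM in ENL. All ENL libraries were above the controls, by 0.34 ± 0.10 on the log2 scale (adjusted p = 0.0371, edgeR). The calls of these genes were sensitive to single libraries: without control 1 all 4 missed the threshold, as SMARCA5 and SMARCA1 also did without control 3, SMARCAD1 and SMARCAL1 without control 2 or 3, and SMARCA1 and SMARCAL1 without ENL 1 or 2. All 4 calls were also lost in the test against 1.2-fold. SMARCA5 was lost with the length and GC offset as well, and SMARCAL1 under upper-quartile scaling, library totals and the replicate block.

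Of the 10 CHD genes, CHD2 rose, CHD4 and CHD8 fell and 7 did not pass. CHD2 is a chromodomain remodeller found at active genes and a known cause of childhood epilepsy when it is disrupted (chromosome 15, 92900189 to 93028005, plus strand). It had 106, 109.8 and 41.7 CPM in control and 257, 277 and 369.8 CPM in ENL. Every ENL library was above every control, control library 3 was the lowest and ENL library 3 the highest. The mean moved from 86.0 ± 38.4 to 301 ± 60.3 CPM (SD, n = 3), a log2 fold change of 1.81 ± 0.40 (adjusted p = 0.016, edgeR) or 3.5-fold, the largest among the called members. Without control library 3 the log2 fold change was 1.48, and it was 1.85 when the counts of AC013394.1, a coding gene that shares 1727 exon bases on the same strand, were added.

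CHD4 and CHD3 are the alternative motors of the NuRD deacetylase complex. CHD4 (chromosome 12, 6570082 to 6614524) had 100.0, 94.7 and 115 CPM in control and 59.3, 59.6 and 72.8 CPM in ENL. CHD3 had 139, 138 and 150.4 CPM in control and 162, 156 and 172 CPM in ENL. CHD4 fell in all 3 ENL libraries, by 0.69 ± 0.12 on the log2 scale (adjusted p = 0.00442, edgeR), also when AC006064.6, which shares 5964 exon bases on the same strand, was added, whereas CHD3 lay above its controls by 0.20 ± 0.08 without passing (adjusted p = 0.0795, edgeR). Per kilobase, CHD3 stood at 19.4 CPM in control and 22.2 in ENL, and CHD4 at 15.4 and 9.58. CHD8, a regulator of Wnt target genes known from autism genetics (chromosome 14, 21385194 to 21456126), had 80.6, 89.9 and 92.7 CPM in control and 47.3, 52.8 and 55.7 CPM in ENL. The groups were far apart relative to their spread, the log2 fold change being -0.76 ± 0.10 (adjusted p = 0.00152, edgeR), the smallest adjusted p of any member.

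CHD7, the CHARGE syndrome gene, had 61.0, 56.5 and 68.0 CPM in control and 25.9, 28.8 and 62.8 CPM in ENL. ENL libraries 1 and 2 were far below the controls and ENL library 3 was among them, so the log2 fold change of -0.66 ± 0.35 did not pass (adjusted p = 0.194, edgeR). Without ENL library 3 the CHD7 log2 fold change was -1.16 (adjusted p = 0.000903, edgeR). CHD1, which binds trimethylated H3K4, had 77.7, 60.1 and 72.6 CPM in control and 86.4, 74.8 and 110.2 CPM in ENL, with overlap and a log2 fold change of 0.37 ± 0.16 (adjusted p = 0.12, edgeR). CHD5, best known from neurons, had 25.8, 25.4 and 25.9 CPM in control and 28.3, 32.3 and 37.8 CPM in ENL, a log2 fold change of 0.35 ± 0.12 that narrowly missed (adjusted p = 0.0573, edgeR) and passed under DESeq2 and without ENL library 1. With the length and GC offset CHD1, CHD3 and CHD5 were each called higher. CHD6 and CHD1L lay below their controls in every ENL library, with log2 fold changes of -0.27 and -0.17 that did not pass; both were called lower under upper-quartile scaling and under library totals, and CHD6 also without ENL library 3. CHD9 overlapped between groups, at -0.14.

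The 5 tested members of the INO80 complex included 2 that rose and 2 that fell. INO80, the motor (chromosome 15, 40978880 to 41116354, minus strand), had 39.0, 28.6 and 32.1 CPM in control and 18.6, 21.2 and 22.5 CPM in ENL. INO80D, an accessory subunit (chromosome 2, 205993721 to 206086303, minus strand), had 18.5, 15.9 and 18.4 CPM in control and 9.44, 7.81 and 12.9 CPM in ENL. Both were below their controls in every ENL library, with log2 fold changes of -0.68 ± 0.14 for INO80 (adjusted p = 0.00992, edgeR) and -0.81 ± 0.20 for INO80D (adjusted p = 0.0173, edgeR). INO80B, a small subunit (chromosome 2, 74455023 to 74457960, plus strand), had 9.70, 13.3 and 15.0 CPM in control and 22.0, 32.4 and 19.9 CPM in ENL. All ENL libraries were above the controls, by 0.97 ± 0.24 on the log2 scale (adjusted p = 0.0179, edgeR); the read-through gene that shares 1096 of its exon bases was at 0 throughout. INO80E (chromosome 16, 29995294 to 30005793) had 51.0, 49.5 and 52.7 CPM in control and 61.2, 65.9 and 65.2 CPM in ENL. Its groups were separate, the log2 fold change being 0.33 ± 0.08 (adjusted p = 0.0161, edgeR), and it shares 1143 exon bases with HIRIP3 on the opposite strand. INO80C did not pass (-0.29 ± 0.15) but was called lower under library totals. The INO80 call held whichever library was left out. INO80B missed the threshold without control 1, INO80D without control 1, control 3 or ENL 1, and INO80E on leaving out any of the controls.

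The stretches of DNA just upstream of 6 of the changed members are shown, for genes that moved up and for genes that moved down. Each is the 100 bases directly before the transcription start given by RefSeq (GRCh38.p14) or GENCODE, whichever lies further upstream, written 5′ to 3′ on the gene's strand. Only called members at 5 CPM or more in the higher group were considered, which left out SMARCA2. Their RefSeq window of 250 upstream bases had to cover that stretch. Their RefSeq start had to lie within 1000 bases of the GENCODE start. The windows shown belong to the 3 such members per direction with the largest changes. Capitals mark matches, on either strand, to any of 6 motifs. The GC box bound by SP1 was searched as GGGCGG and the CCAAT box as CCAAT. The binding site of ETS family factors was searched as CCGGAAG and the E-box as CACGTG. The cyclic AMP response element was searched as TGACGTCA and the TATA box as TATAAA. CHD2, ARID5A and INO80B rose, at chr15:92900089-92900188 (+), chr2:96536643-96536742 (+) and chr2:74454923-74455022 (+). INO80D, SMARCAD1 and INO80 fell, at chr2:206086304-206086403 (−), chr4:94207508-94207607 (+) and chr15:41116355-41116454 (−).
CHD2: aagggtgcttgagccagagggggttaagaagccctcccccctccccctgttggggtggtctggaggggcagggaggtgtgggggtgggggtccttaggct
ARID5A: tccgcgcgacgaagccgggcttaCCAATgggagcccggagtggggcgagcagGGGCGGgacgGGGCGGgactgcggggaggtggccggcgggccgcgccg
INO80B: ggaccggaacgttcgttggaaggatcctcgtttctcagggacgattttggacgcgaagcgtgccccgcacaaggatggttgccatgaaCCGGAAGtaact
INO80D: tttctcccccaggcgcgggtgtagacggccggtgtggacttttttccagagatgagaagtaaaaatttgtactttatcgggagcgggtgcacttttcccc
SMARCAD1: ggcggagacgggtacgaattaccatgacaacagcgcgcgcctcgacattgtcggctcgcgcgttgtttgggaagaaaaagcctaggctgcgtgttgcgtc
INO80: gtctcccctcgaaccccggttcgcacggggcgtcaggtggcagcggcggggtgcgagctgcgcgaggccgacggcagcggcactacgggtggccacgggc
ARID5A held 2 GC boxes and a CCAAT box, and INO80B an ETS site next to its start, while the windows of CHD2, INO80D, SMARCAD1 and INO80 held none of these letters. Over 35116 RefSeq windows of the same length that end at the RefSeq start, 31.3% held a GC box, 18.1% a CCAAT box, 5.6% the ETS site, 3.4% the E-box, 1.2% the cyclic AMP response element and 5.0% the TATA box, so the matches describe these windows only.

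Of the BRD genes outside SWI/SNF that are reported here, BRD2 rose and 4 did not pass. BRD2 (chromosome 6, 32968660 to 32981505) had 86.5, 102 and 91.2 CPM in control and 119, 104 and 129 CPM in ENL. The lowest ENL library lay just above the highest control, and the log2 fold change of 0.33 ± 0.11 passed narrowly (adjusted p = 0.0492, edgeR); it no longer passed in 12 of 19 alternatives, including the omission of any one control or of ENL library 1 or 3. BRD3 had 65.5, 58.9 and 61.7 CPM in control and 59.1, 50.2 and 59.8 CPM in ENL, with overlap and -0.14 ± 0.10 (adjusted p = 0.314, edgeR). Per kilobase BRD2 stood above BRD3 in both groups, at 19.1 and 10.97 CPM in control and 24.0 and 9.97 CPM in ENL. BRD8, a subunit of the TIP60 acetyltransferase complex, and BRD1, a scaffold of the HBO1 acetyltransferase complex, overlapped between groups, at 0.21 and -0.03; BRD8 was called higher with the length and GC offset. BRD3OS, which shares 1281 bases with BRD3 on the opposite strand, had 33.5 CPM in ENL library 2 and no more than 26.4 CPM in any other library.

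Among the 7 ARID genes outside SWI/SNF, ARID5A and ARID3A rose and 5 did not pass. ARID3A, an AT-rich DNA binding factor (chromosome 19, 925781 to 975934), had 22.4, 23.1 and 21.9 CPM in control and 27.5, 29.2 and 30.0 CPM in ENL. The groups were separate, the log2 fold change being 0.36 ± 0.09 (adjusted p = 0.0176, edgeR) that missed the threshold on leaving out any of the controls. ARID5A, which also binds and stabilises inflammatory mRNAs (chromosome 2, 96536743 to 96552638, plus strand), had 2.54, 3.25 and 2.52 CPM in control and 9.84, 6.21 and 3.21 CPM in ENL. ENL library 3 lay within the control range while library 1 was far above it. The log2 fold change was 1.21 ± 0.39 (adjusted p = 0.0478, edgeR), and the ARID5A call was lost in 11 of 18 alternatives, including the omission of any one control or of ENL library 1 or 2. Its relative ARID5B, a cofactor of the demethylase PHF2, lay below the controls in every ENL library without passing (-0.33 ± 0.16, adjusted p = 0.15, edgeR). ARID4B had 33.6, 21.2 and 45.0 CPM in ENL against 23.8, 27.7 and 21.2 CPM in control, ENL library 2 again being the lowest, and was called higher without that library. Its log2 fold change was 0.46 ± 0.27, and 0.18 after adding RBM34, which shares 1603 exon bases on the same strand. ARID4A and ARID3B overlapped between groups, ARID4A being called higher with the length and GC offset or without ENL library 2, and ARID3C was at or under 0.352 CPM in every library, too low to compare.

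**Figure D2:**
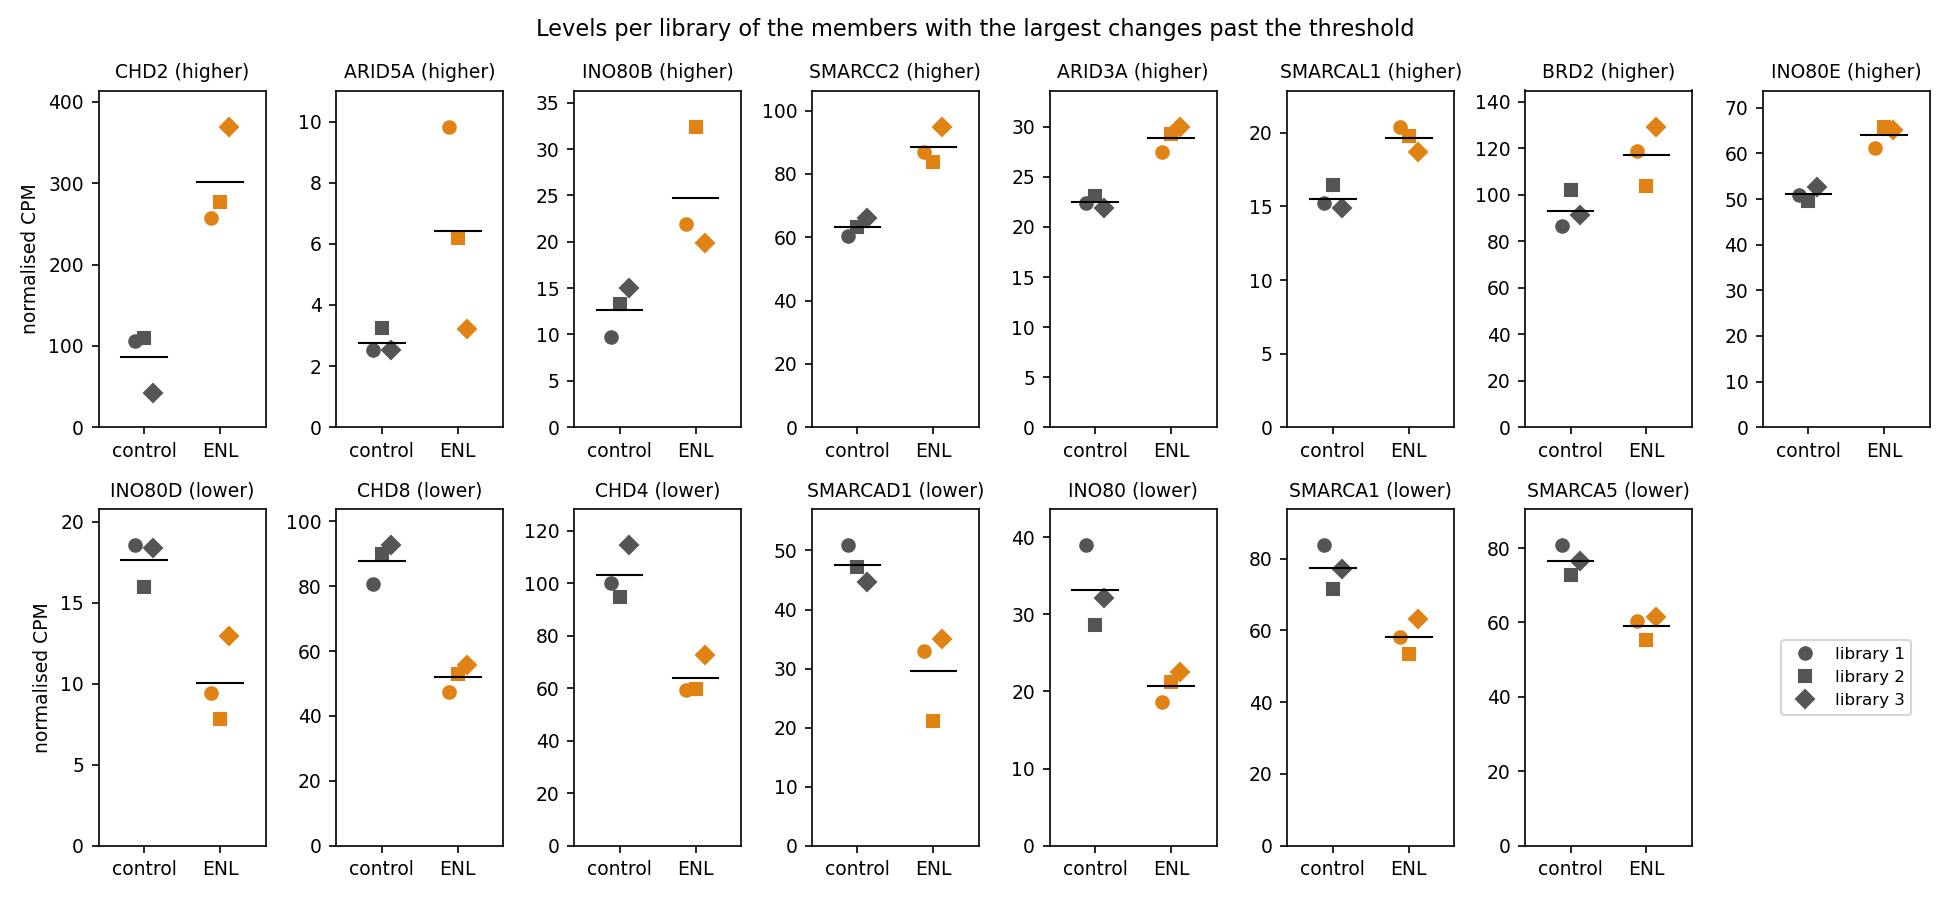
Level per library (CPM, y axis from 0) of the 8 higher and 7 lower members with the largest changes among those past the threshold and at 5 CPM or more, in the control (grey) and ENL (orange) groups; black lines are group means and marker shapes are library numbers. The groups are separate in every panel but that of ARID5A, where ENL library 3 at 3.21 CPM lies under control library 2 at 3.25 CPM.

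Ratios between related genes within one library do not depend on how libraries are scaled, so 14 pairs of paralogs or alternative subunits were compared. In 6 of the 14 pairs the ratios of the groups did not overlap. No such count was made over other gene pairs, and among single tested genes 54.0% did not overlap. The count is therefore not a result about these pairs. With 3 libraries against 3 the smallest p that the exact two-sided permutation test allows is 0.1, which becomes 0.2333 after Benjamini-Hochberg adjustment over the 14 pairs, so no pair could pass. The ratio of SMARCA4 to SMARCA2 was 53.4, 50.4 and 60.8 in control and 91.7, 161 and 87.6 in ENL. That of CHD3 to CHD4 was 1.39, 1.46 and 1.31 in control and 2.74, 2.62 and 2.37 in ENL. Both ratios were higher in every ENL library, with log2 differences of 0.995 and 0.89. The ratio of SMARCC1 to SMARCC2 was 2.17, 2.03 and 1.92 in control and 1.38, 1.32 and 1.28 in ENL, and that of CHD1 to CHD2 was 0.730, 0.548 and 1.74 in control and 0.336, 0.270 and 0.298 in ENL. These were lower in every ENL library, by -0.63 and -1.56 on the log2 scale. The 2 further separate pairs were ARID5A to ARID5B (1.42) and ARID3A to ARID3B (0.32). The ISWI pair SMARCA1 to SMARCA5 kept nearly the same ratio in all 6 libraries, between 0.961 and 1.04, with a log2 difference of -0.04 (exact permutation p = 0.4).

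**Figure D3:**
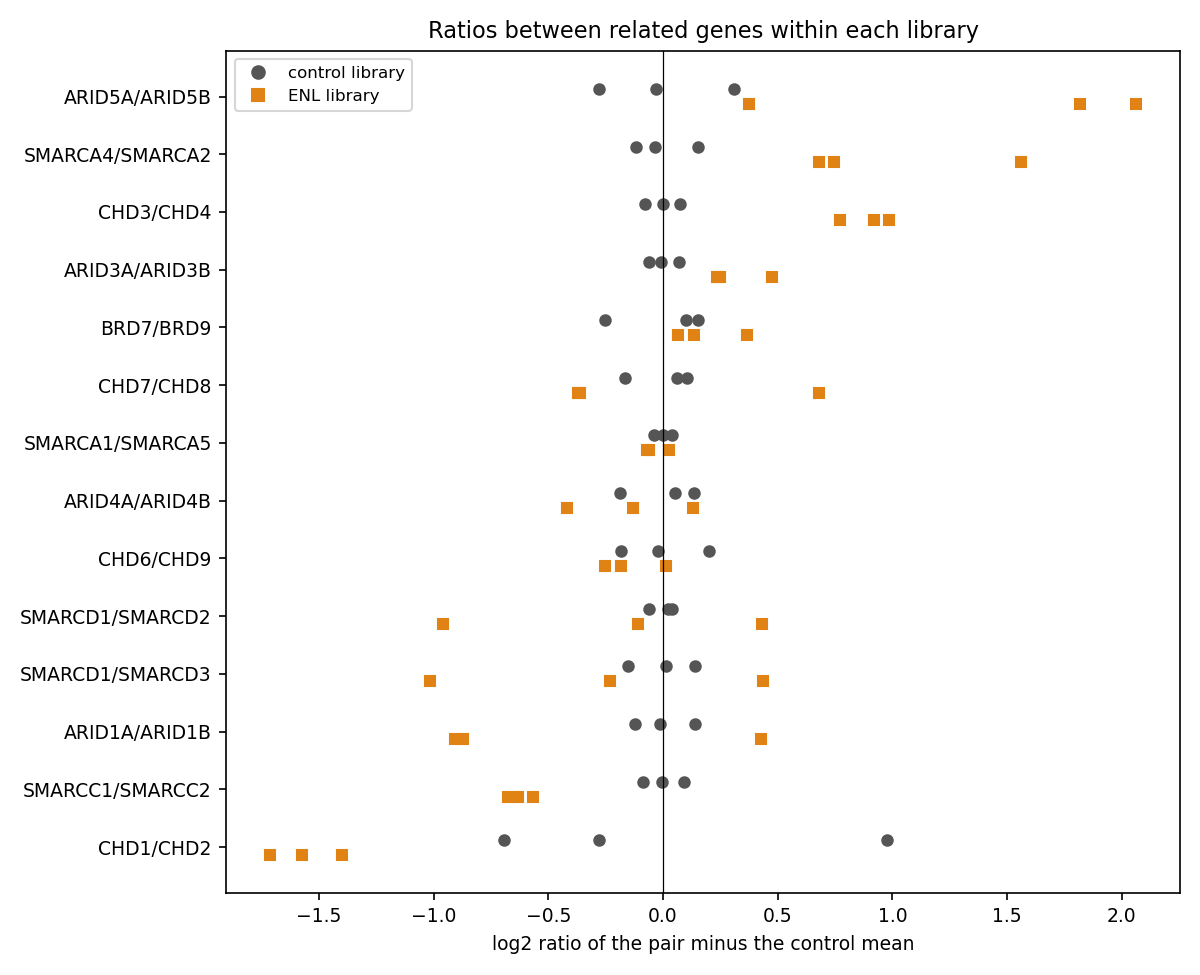
Log2 ratio of each of 14 gene pairs in each library, minus the mean of the 3 control libraries, for control (grey circles) and ENL (orange squares). The CHD3/CHD4 and SMARCA4/SMARCA2 ratios shift right and the SMARCC1/SMARCC2 and CHD1/CHD2 ratios left in all 3 ENL libraries, while SMARCA1/SMARCA5 stays near 0.

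Genes for motor subunits and genes for the other subunits had unequal counts of calls, in a division made after the values were seen and therefore given with no test. Of the 17 members that code for a SNF2-type ATPase, 2 rose (CHD2 and SMARCAL1) and 7 fell, with a median log2 fold change of -0.27. Of the 29 tested members that do not, 7 rose and INO80D alone fell, with a median of 0.14. Higher calls made up 11.8% of the motor genes, 24.1% of the others and 20.0% of all tested genes. Lower calls made up 41.2%, 3.45% and 18.4%. The motor genes also have longer transcripts, with a median of 7.36 kb against 5.21 kb, and over all tested genes the quartile with the shortest transcripts had a median log2 fold change of 0.11 and the longest -0.09. The median GC content was 47.2% in the motor genes and 54.6% in the others. Adding an offset for transcript length and GC content gave 5 higher and 6 lower among the motor genes and 13 higher and 1 lower among the others. Scaling by library totals gave 1 higher and 9 lower, and 1 higher and 4 lower. Over all tested genes the offset gave 3823 higher and 2447 lower, and library totals 1804 higher and 3996 lower. Across the members, Spearman's rho of log2 fold change was -0.272 with transcript length and 0.452 with GC content, against -0.109 and 0.052 over all genes; these are across genes, which are not independent replicates.

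The partners of these genes were read from 8 lists covering 119 genes, of which 116 were tested. Of these 24 rose and 20 fell, or 37.9%, again near the background. By list the share called ran from 18.2% to 58.3%, against 38.4% of all tested genes. The lists are short and none was tested as a set. Among 16 other SWI/SNF subunits 6 rose and 2 fell. DPF2, the histone reader of the canonical complex, went from 37.4 ± 0.807 to 54.9 ± 0.968 CPM (log2 fold change 0.55), and BICRA, a subunit of the non-canonical complex, from 34.3 ± 2.57 to 53.6 ± 4.30 CPM (0.64). BICRAL of the same list fell from 12.1 ± 1.31 to 8.54 ± 1.38 CPM (-0.50, adjusted p = 0.046, edgeR), a call lost in 7 of 19 alternatives. ACTL6A, the actin-related subunit shared with INO80, fell from 104 ± 2.13 to 82.4 ± 3.09 CPM (-0.33), a call lost in the test against 1.2-fold. PBRM1, which defines PBAF with ARID2 and BRD7, varied widely within both groups, with 43.2, 44.1 and 21.3 CPM in control and 12.8, 33.4 and 47.7 CPM in ENL.

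Among 15 other NuRD subunits 4 rose and 4 fell, alongside the fall of CHD4. The paralogs of the MTA scaffold went different ways: MTA1 rose from 133 ± 9.03 to 192 ± 11.4 CPM and MTA3 from 18.6 ± 1.31 to 31.3 ± 4.74 CPM, and MTA2 fell from 128 ± 3.40 to 88.1 ± 0.748 CPM. ZMYND8, a bromodomain protein that binds NuRD, fell from 201 ± 10.7 to 117 ± 6.87 CPM (-0.78). Of 25 other subunits of the INO80, SRCAP and EP400 complexes 5 rose and 4 fell. KAT5, the TIP60 acetyltransferase, rose from 26.4 ± 3.01 to 55.5 ± 5.07 CPM (1.07); it shares 1439 exon bases with RNASEH2C on the opposite strand. RUVBL1, an AAA+ ATPase shared by these complexes and overlapped on the opposite strand by SEC61A1 and EEFSEC, fell from 166 ± 9.99 to 102 ± 10.5 CPM (-0.70). Of 11 other ISWI subunits RSF1, the partner of SMARCA5 in the RSF complex, rose (0.51), a call lost under scaling by library totals. BAZ1A, the partner of SMARCA5 in ACF, fell (-0.57), a call lost without control library 3 or ENL library 2, with the length and GC offset and in the test against 1.2-fold.

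The genes around the BET proteins also changed in both directions, 3 of 12 up and 4 down. The share called was 58.3% in this short list, against 38.4% of all tested genes. HEXIM1 and MEPCE, which hold P-TEFb in its inactive 7SK particle, fell from 88.6 ± 1.90 to 69.4 ± 1.32 CPM (-0.35, adjusted p = 0.00775, edgeR) and from 51.5 ± 1.95 to 31.7 ± 1.61 CPM (-0.70). The HEXIM1 call was lost against 1.2-fold. JMJD6, a dioxygenase that acts with BET proteins, rose from 32.9 ± 1.71 to 50.5 ± 0.769 CPM (0.62), and the kinase CDK9 itself did not pass (0.06). Of 30 other bromodomain genes 3 rose and 3 fell; the acetyltransferases EP300 and CREBBP had log2 fold changes of -0.58 and -0.28 that did not pass (adjusted p = 0.324 and 0.0742, edgeR). Of 4 other ARID-domain genes JARID2 and KDM5B rose, by 0.80 and 0.69. Of 14 other SNF2-family ATPases 4 fell and 10 did not pass; the lower ones included ERCC6L from 20.0 ± 0.356 to 7.55 ± 1.27 CPM (-1.40) and BTAF1 from 144 ± 10.7 to 58.8 ± 24.3 CPM (-1.29).

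CHD2, CHD4, CHD8 and INO80 were called in the same direction in all 19 alternatives, and SMARCC2 stayed called whichever library was left out. None of the 17 called members changed direction in any of them. BRD2, ARID5A, SMARCD3 and SMARCAL1 were lost most often, in 9 to 12 of the alternatives. Between 2 and 9 members were called higher and between 3 and 10 lower when one library was left out, the fewest higher calls being those without control library 1 and the fewest lower calls those without control library 1 or 3.

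**Figure D4:**
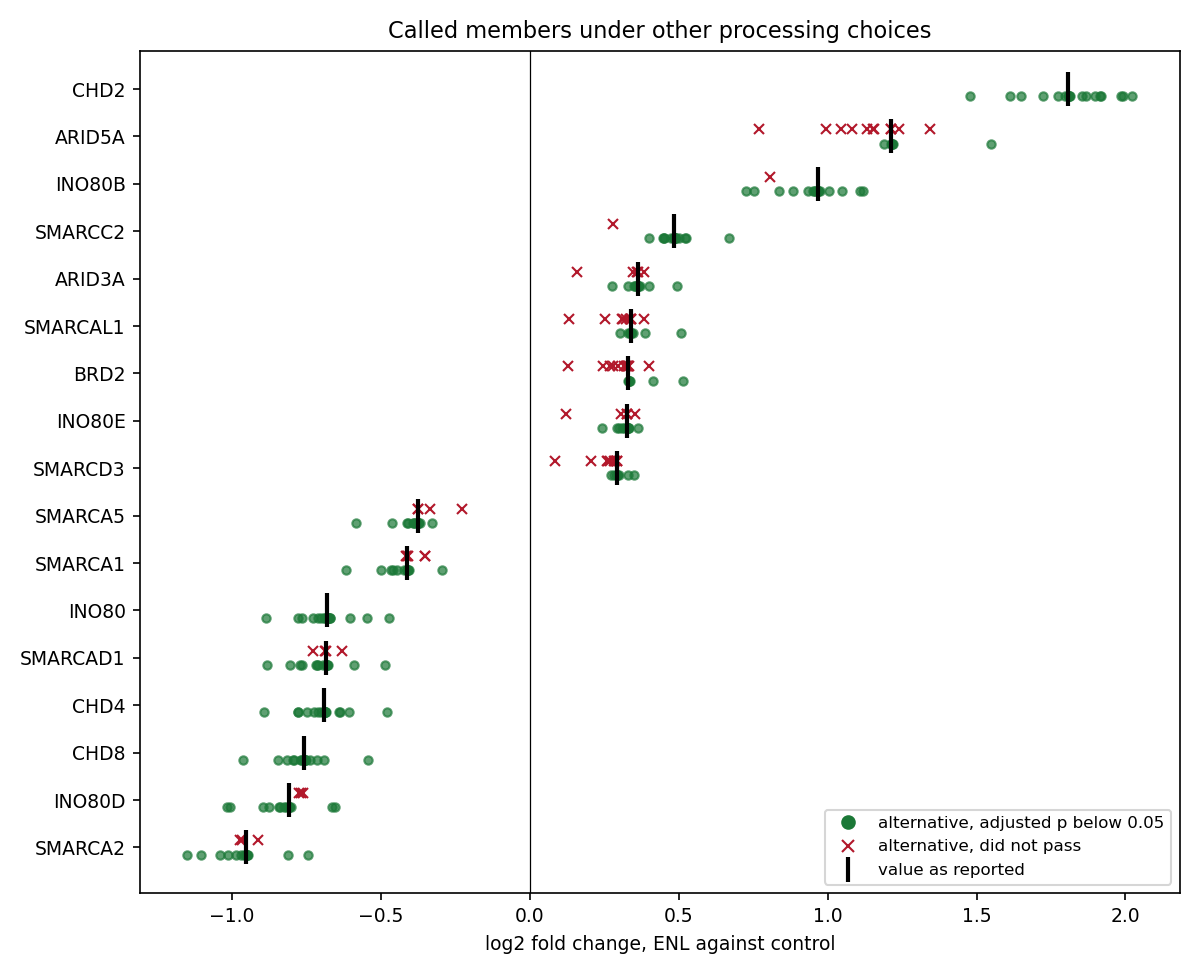
Log2 fold change of each of the 17 called members as reported (black bar) and under each alternative, as a green circle where the adjusted p stayed below 0.05 and a red cross where it did not. CHD2, CHD4, CHD8 and INO80 have no crosses, and no point crosses 0.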

How the data were processed

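Total RNA of 3 control and 3 ENL-treated BT549 samples was sequenced. The authors' deposited table holds an estimated count per gene symbol and library; per the submitters' processing notes the tools were STAR, StringTie, FastQC and DESeq2 on hg38, without versions or roles. Of the values from 4 to 43, 70.8% to 73.1% per library were multiples of 4 or 1 above, more than evenly spread values would give. From this, 1 fragment was taken to be worth about 4 counts. The factor is an inference and the remaining values do not follow it. The values were whole numbers as deposited. Genes passed filterByExpr at a minimum count of 10, and after TMM scaling all of them entered one edgeR 4.0.16 model (glmQLFit, robust; R 4.3.3), adjusted by Benjamini-Hochberg and called at 0.05; standard errors are on the log2 scale. CPM values are estimated counts relative to the TMM-scaled library total. Transcript lengths, positions and shared exon bases came from GENCODE 29 (GRCh38), which matched all 47 members by symbol; promoters came from RefSeq (GRCh38.p14), whose table held 38 of the 47. On simulated data with the same means and library sizes (13872 to 13877 genes), the recovered share was 6.8% at 1.5-fold, 48.8% at 2-fold and 76% at 4-fold, and 8.05% of calls were false. The simulations changed far fewer genes than the 38.4% called here, which makes the adjusted threshold stricter. The recovered and false shares therefore do not carry over to these data.

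Members, gene lists and tests were chosen with earlier results of these data known. Values in every library are given for up to 8 members per direction (8 higher and 7 lower) with the largest absolute log2 fold change among those called and at 5 CPM or more in the higher group, plus SMARCA4, SMARCA2, ARID1A, ARID1B, ARID2, SMARCB1, BRD2, BRD3, BRD9, CHD1, CHD3, CHD4, CHD7, CHD8 and INO80; other members' library values were added after they were seen. The counts include 1 member that is not reported here. Partners were named among up to 3 per direction and list with the smallest adjusted p, plus PBRM1, HEXIM1, CDK9, EP300 and CREBBP. Paralog ratios were tested with an exact permutation test (scipy 1.17.1). Alternatives were other scalings, DESeq2 1.42.0, limma-voom 3.58.1, other filters, a replicate block, counts divided by 4, a length and GC offset, a test against 1.2-fold, summed overlapping genes, removal of 100 ribosomal protein and mitochondrial genes, and leaving out each library.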

Additional observations from a re-analysis of the deposited data

How the results depend on the processing

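Calls of small changes rest on 3 libraries a group and on scaling. The members called higher numbered 5 under upper-quartile scaling, 2 under library totals, 5 with the replicate block, 18 with the length and GC offset and 3 in the test against 1.2-fold; those called lower numbered 13 under library totals and 5 against 1.2-fold. Over all genes, library totals gave 1804 higher and 3996 lower, and the test against 1.2-fold 1713 lower. The length and GC offset gave 3823 genes higher and 2447 lower, and upper-quartile scaling 2356 and 3136. These shifts took in the whole table as well as the members. In the main fit 9 members and 2819 genes were called higher. Relative to these, the members' higher calls shifted more than those of all genes under each setting named above. Whether the few members differ from other genes in this was not tested. Partners called lower numbered 38 under library totals and 8 against 1.2-fold, and those called higher 37 with the length and GC offset. The members' median log2 fold change was -0.021, -0.14 and 0.24 under upper-quartile scaling, library totals and the length and GC offset. Over all genes the medians under these settings were -0.11, -0.23 and 0.06. Leaving out one library in turn gave 2 to 9 members higher, 3 to 10 lower, a median of 0.02 to 0.13, 17 to 26 partners higher, 11 to 31 lower, and 2072 to 3156 genes higher and 1743 to 2877 lower. The test against 1.2-fold has a stricter null and the omission of a library leaves fewer samples; for the other settings the cause was not tested.

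Signs changed only in members and partners that were not called and in ratios whose groups overlapped. Under upper-quartile scaling the log2 fold changes were -0.083 for SMARCA4, -0.054 for BRD3OS, -0.0088 for ARID2, -0.033 for ARID3B and -0.024 for CDK9. Under library totals they were -0.0051 for CHD3, -0.20 for SMARCA4, -0.19 for BRD3OS, -0.12 for ARID2, -0.062 for SMARCD1, -0.15 for ARID3B, -0.071 for ARID1A and -0.15 for CDK9. BRD3OS was -0.044 in limma-voom and -0.0033 at 10 CPM or more in 3 libraries, where SMARCA4 was -0.031; SMARCA4 was -0.0067 with counts divided by 4. With the length and GC offset BRD7 was 0.13, BRD1 0.16, BRD3 0.071, CHD9 0.015, SMARCC1 0.041 and SMARCB1 0.11; without mitochondrial and ribosomal protein genes SMARCB1 was 0.0027. When one library was left out, the ranges were -0.035 to 0.17 for ARID2, -0.0029 to 0.16 for ARID3B, -0.098 to 0.071 for BRD1, -0.35 to 0.24 for BRD3OS, -0.63 to 0.17 for PBRM1, -0.036 to 0.068 for SMARCA4, -0.099 to 0.070 for SMARCB1 and -0.29 to 0.44 for SMARCD1. The log2 ratio differences ranged from -0.27 to 0.0003 for ARID4A to ARID4B, -0.37 to 0.16 for CHD7 to CHD8, -0.54 to 0.16 for SMARCD1 to SMARCD2 and -0.62 to 0.10 for SMARCD1 to SMARCD3.

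The replicate numbers did not meet the criterion for pairing: deviations of same-numbered libraries correlated at 0.036, 0.030 and 0.068, although every library correlated best with its own number. With the replicate block, 5 members were higher and 8 lower, with 2631 and 2310 genes over the whole table; BRD3OS was -0.031 and SMARCB1 0.0007.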
